A study of Mus musculus with 4 samples.

Results

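The fibroblasts described here were 207 of 28085 kept cells from 4 single-cell RNA libraries of mouse lung tumours. A cell was kept if it had at least 200 genes detected and at most 20% of its UMIs from mitochondrial genes. A UMI (unique molecular identifier) tags 1 captured RNA molecule. A kept cell was taken as a fibroblast if Col1a1, Col1a2 and Col3a1 together had at least 5 UMIs, if the mural genes Rgs5, Cox4i2 and Notch3 together had at most 1, and if Ptprc, Cdh5 and Epcam had 0. These 3 genes mark immune, endothelial and epithelial cells. The levels of the genes named in this rule were therefore fixed by it and are given as description only.

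All mice carried the alleles p53frt, Rosa-FSF-CreERT2 and Hnf4aflox, and tumours were started by intubation with an adenovirus carrying FlpO under the mSPC promoter. Mice received tamoxifen or vehicle 10 weeks after that, and macroscopic tumours were collected and dissociated a further 2 weeks on. Some of every suspension was set aside untouched (before depletion), and magnetic beads were used on what remained to remove cells carrying CD45 or CD31 (after depletion). Both portions were frozen, thawed and sorted for live single cells. The 4 groups, vehicle before, vehicle after, tamoxifen before and tamoxifen after depletion, hold 1 library each, and values below follow this order. The labels title the vehicle libraries KP and the tamoxifen libraries KPH, although the listed genotype is the same. They name the vehicle as ethanol in one place and as corn oil in another, and give neither the age of the mice nor the number of animals or tumours per suspension.

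The study asked how tamoxifen-induced loss of Hnf4a alters tumour cells. In this model CreERT2 becomes available only where Flp has acted, and FlpO was driven by a surfactant protein C promoter, which is active in alveolar type II cells, so fibroblasts are not the cells in which recombination is designed to occur. In cells passing an epithelial gate, Hnf4a stood at 53.7 and 55.2 CPM in vehicle and at 84.2 and 82.9 CPM in tamoxifen, where CPM is a gene's UMIs scaled to a total of 1000000 UMIs. The counted level was thus not lower in the libraries labelled tamoxifen. As the counts do not separate recombined from intact alleles, whether Hnf4a was lost was not tested. Directions are therefore given for the libraries labelled vehicle and tamoxifen, and not for loss of Hnf4a. Among fibroblasts, Hnf4a had 2 UMIs in all, both in the vehicle library after depletion. Cre, flpO, GFP and Tdtomato had none.

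Fibroblasts build and remodel the extracellular matrix. They secrete the fibrillar collagens that give tissue its tensile strength, the elastin and microfibril proteins that let the lung recoil, and the enzymes that crosslink them. In normal lung, alveolar fibroblasts lie in the alveolar walls next to type II cells, and adventitial fibroblasts surround vessels and airways. In tumours and in fibrosis, fibroblasts can take on an activated, contractile state marked by genes such as Cthrc1, Postn and Acta2, or an inflammatory state in which they secrete cytokines such as Il6.

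Stretches of 250 bases before the RefSeq transcription start (GRCm38.p6) are shown for 2 genes, with any match to the motif CCAAT (on either strand) in capitals. Col1a2 encodes the alpha-2 chain of type I collagen, is a gene of the selection rule, and stood at similar levels in all 4 libraries. Pdgfra encodes the alpha receptor for platelet-derived growth factor and was lower after depletion in both treatments. The Col1a2 stretch lies at chr6:4505368-4505617 (plus strand) and the Pdgfra stretch at chr5:75152001-75152250 (plus strand).
Col1a2: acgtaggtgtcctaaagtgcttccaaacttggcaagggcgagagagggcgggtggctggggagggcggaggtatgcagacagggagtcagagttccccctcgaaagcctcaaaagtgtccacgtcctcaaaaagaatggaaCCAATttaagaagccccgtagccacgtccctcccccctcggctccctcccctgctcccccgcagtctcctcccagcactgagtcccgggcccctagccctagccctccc
Pdgfra: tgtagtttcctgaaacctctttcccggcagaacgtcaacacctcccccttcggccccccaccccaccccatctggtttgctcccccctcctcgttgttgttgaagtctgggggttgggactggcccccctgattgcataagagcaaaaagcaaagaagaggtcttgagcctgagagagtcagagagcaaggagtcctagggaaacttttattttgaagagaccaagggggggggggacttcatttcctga
The Col1a2 stretch held 1 CCAAT match, starting at base 142 of the stretch, and the Pdgfra stretch held none. A second motif, TGANTCA, searched on both strands, matched in neither stretch. Of 32851 promoter stretches of the same length, 33.8% held a CCAAT match and 6.75% a TGANTCA match. A match is a description of the letters in the window and does not show that a factor binds there.

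The libraries held 52, 75, 26 and 54 fibroblasts, of 7304, 7043, 6227 and 7511 kept cells. This was 0.712% (95% Clopper-Pearson interval 0.532 to 0.933), 1.06% (0.838 to 1.33), 0.418% (0.273 to 0.611) and 0.719% (0.541 to 0.937) of kept cells. Among cells with no Ptprc and no Cdh5 UMI, fibroblasts made up 4.15% and 2.11% before depletion and 1.10% and 0.741% after it. Per 1000 cells of the epithelial gate there were 58.2, 11.6, 28.3 and 7.62 fibroblasts. Against mural cells, the pericytes and smooth muscle of vessel walls, the ratio was 1.86, 1.27, 0.722 and 1.0. The fibroblast share of all kept cells was thus higher after depletion in both treatments, with intervals that overlapped, and their number per epithelial cell was lower. Counting only fibroblasts with Krt8, Krt18 and Cdh1 at 0 (43, 32, 21 and 26 cells), the shares were 0.589%, 0.454%, 0.337% and 0.346%, so in vehicle the share was then the lower one after depletion. In both portions the tamoxifen library held the smaller share, with intervals that overlapped before depletion (0.532 to 0.933 against 0.273 to 0.611) and after it (0.838 to 1.33 against 0.541 to 0.937). With no replicate libraries, no spread between animals is known, and the intervals cover counting error only.

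The depth per fibroblast differed between the portions. The median was 22633.5, 12061, 15588.5 and 9434.5 UMIs per cell, with 5303, 3904, 4091 and 3202 genes detected. In total the fibroblasts gave 1162839, 1031055, 462790 and 532659 UMIs. Malat1, a nuclear RNA, stood at 13512, 26054, 23618 and 20488 CPM in them. The libraries shared 10 to 18 cell barcodes per pair, none of which marked a fibroblast in both.

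The gate was traced from both sides. Of 523 kept cells with at least 5 UMIs of the 3 collagens, mural genes left out 207 (by coincidence the number of members), and Ptprc left out 53, Cdh5 3 and Epcam 119, with some cells left out on several grounds. Epcam alone removed 76, of which 31 had exactly 1 Epcam UMI. By library Ptprc left out 35, 0, 18 and 0 cells, and Epcam alone removed 10, 42, 3 and 21. The grounds for leaving cells out thus differed between the portions. The part of this in the shares before and after depletion was not tested. Of the fibroblasts kept, 149 had 50 or more collagen UMIs and 13 had 5 to 9. The 5 cells just inside the threshold (5 or 6 UMIs) had 12704 CPM of Mgp, 10132 CPM of Sftpc and 2962 CPM of Krt18. The 13 cells just outside it (3 or 4 UMIs) had 10378, 9040 and 1898 CPM. By library the cells just inside numbered 1, 3, 0 and 1 and those just outside 0, 12, 0 and 1. Most edge cells thus came from the vehicle library after depletion. In the 202 fibroblasts above the edge, Mgp reached 38415 CPM while Sftpc, a surfactant gene of type II cells, was at 662 CPM and the keratin gene Krt18 at 53.2 CPM. The few cells at the edge thus held less Mgp and more Sftpc and Krt18 than the rest.

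The label was set against its 5 markers, of which Col1a1, Col1a2 and Col3a1 belong to the selection rule. Mgp, a matrix protein that restrains mineralisation, had the highest level of the 5 markers and was detected in 52, 73, 26 and 54 fibroblasts. Its level was 32777, 35955, 40068 and 53426 CPM, against a mean over the 4 libraries of 21869 CPM in mural cells, 264 in immune cells, 80.0 in endothelial cells and 14.3 in epithelial cells. By library Mgp in mural cells stood at 30339, 24995, 21852 and 10292 CPM. In vehicle before depletion it was thus near the fibroblast level. Eln, which encodes elastin, stood at 3864, 2260, 3976 and 2632 CPM and averaged 956 CPM in mural cells. Mgp and Eln were not part of the selection rule. Because these are 3′ UMI counts, each captured molecule counts once whatever its length. How far capture differed between genes was not measured, so an order of levels between genes is a description of counts.

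The 15 genes with the highest ratio of mean CPM in fibroblasts over the highest of the mural, endothelial, epithelial and immune gates were Mfap4, Sfrp1, Ogn, Saa3, Cpxm1, Cp, Ptger3, Adh1, Aldh1a1, Hhip, Chl1, Inmt, Itgbl1, Mmp3 and Dpep1. Mfap4, a microfibril-associated protein, averaged 488 CPM in fibroblasts and 26.6 in mural cells. Sfrp1, a secreted Wnt inhibitor, averaged 251 CPM against 19.2 in mural cells. Aldh1a1, which makes retinoic acid, averaged 280 CPM against 33.8, and Inmt, a methyltransferase used as an alveolar fibroblast marker, 277 against 35.6. In these examples the mural gate was the next highest. The 15 genes differed in how many cells held them. Mfap4 had UMIs in 38, 30, 18 and 26 fibroblasts, but Saa3 in 5, 10, 7 and 7 and Mmp3 in 13, 7, 4 and 5. A high ratio is thus not a trait of every fibroblast. Since the cells were chosen by their collagens, this contrast is a description.

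**Figure D1:**
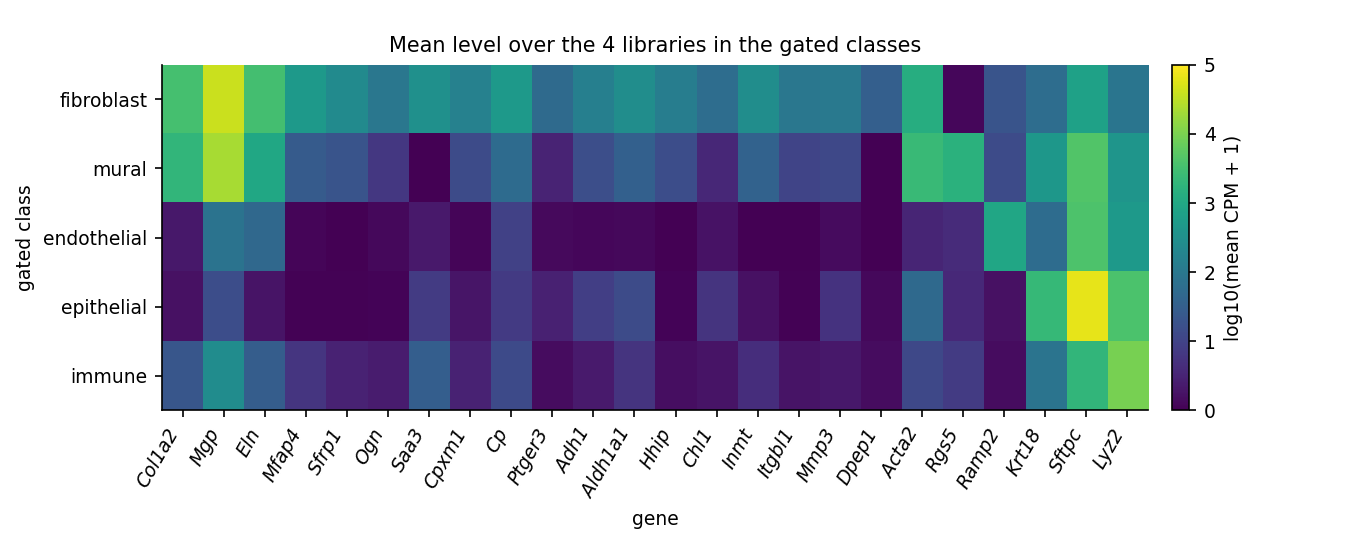
Mean level over the 4 libraries (colour, log10 of mean CPM plus 1) of selected genes (columns) in the fibroblasts and 4 other gated classes (rows). Col1a2 and Mgp were high in fibroblasts and mural cells, Mfap4 averaged 488 CPM in fibroblasts and 26.6 in mural cells, and Rgs5 and Sftpc stood highest in the mural and epithelial rows.

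Genes of other cell types were measured in the same cells. The epithelial list (10 genes, of which Epcam was at 0 by rule) summed to 188, 1754, 287 and 1487 CPM, so it was higher after depletion in both treatments. Sftpc made up most of it, at 163, 1258, 225 and 1207 CPM, and had a UMI in 50, 75, 25 and 54 cells. In the epithelial gate its mean was 66285 CPM. Krt8, Krt18 and Cdh1 were all at 0 in 122 of the 207 fibroblasts (43, 32, 21 and 26). The endothelial list (8 genes, Cdh5 at 0) summed to 22.5 to 41.3 CPM, the pan-immune list (8 genes, Ptprc at 0) to 93.1 to 143 CPM, most of it Lyz2, and the mural list (8 genes) to 325 to 385 CPM. Schwann, erythroid and chondrocyte genes summed to at most 4.32 CPM in each library. Mesothelial genes summed to 37.8, 223, 32.4 and 84.5 CPM: 6 cells of the vehicle library after depletion and 1 of the tamoxifen library after depletion had UMIs of Msln, Upk3b or Lrrn4, which define the lining of the pleura. Myh11, a smooth muscle myosin, had UMIs in 6, 9, 0 and 3 fibroblasts. Scrublet, a doublet caller, gave 4 of the 207 a score above 0.25.

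Matrix genes were among the highest in level. Col1a1 stood at 3305, 2856, 3725 and 2320 CPM, Col1a2 at 3608, 3022, 3641 and 3077, and Col3a1, the chain of type III collagen, at 3247, 2535, 2411 and 2488. These 3 genes of the rule thus lay between 2320 and 3725 CPM in every library. Fn1, which encodes fibronectin, stood at 8574, 6101, 10977 and 6321 CPM, and was lower after depletion in both treatments. Sparc, a collagen-binding glycoprotein, was at 5083, 5554, 4168 and 5585 CPM. The proteoglycan gene Bgn was at 3093, 2170, 3140 and 2585 CPM, and its relative Dcn at 857, 1163, 700 and 1474. Bgn was thus lower after depletion in both treatments and Dcn higher. Among minor fibrillar chains, Col5a2 was at 1653, 1200, 1867 and 1335 CPM. Col4a1, a chain of the basement membrane network, was at 1002, 1035, 1124 and 918 CPM, and Col6a3, of beaded filaments, at 563, 521, 499 and 693. The whole fibrillar collagen list (11 genes) summed to 12498, 10247, 12379 and 9926 CPM.

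The elastic fibre list (17 genes, all detected in each library) summed to 10164, 6954, 10994 and 7724 CPM. Besides Eln it was led by Ltbp2 at 1247, 948, 1338 and 944 CPM, which binds microfibrils, by the microfibril gene Mfap5 at 1133, 672, 901 and 715, and by Fbn1 at 922, 812, 1119 and 1027, which encodes fibrillin-1. The crosslinking enzymes Lox and Loxl1 stood at 430, 243, 382 and 291 CPM and at 312, 199, 372 and 325 CPM. Serpinh1, the collagen chaperone, was at 780, 844, 745 and 713 CPM. The fibroblasts of every library therefore held RNA for the chains, their chaperone and the enzymes that join them.

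Matrix turnover was represented by the protease Mmp14 at 378, 421, 460 and 460 CPM and by inhibitors at higher levels. Timp1, an inhibitor of metalloproteinases, stood at 753, 3334, 1141 and 2044 CPM and Timp3 at 995, 1827, 1703 and 1860. Timp1 was higher after depletion in both treatments, by 2.14 on the log2 scale in vehicle (95% interval 2.04 to 2.25) and by 0.84 in tamoxifen (0.69 to 0.99). Between treatments its direction differed by portion, at 0.60 before and -0.70 after depletion.

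**Figure D2:**
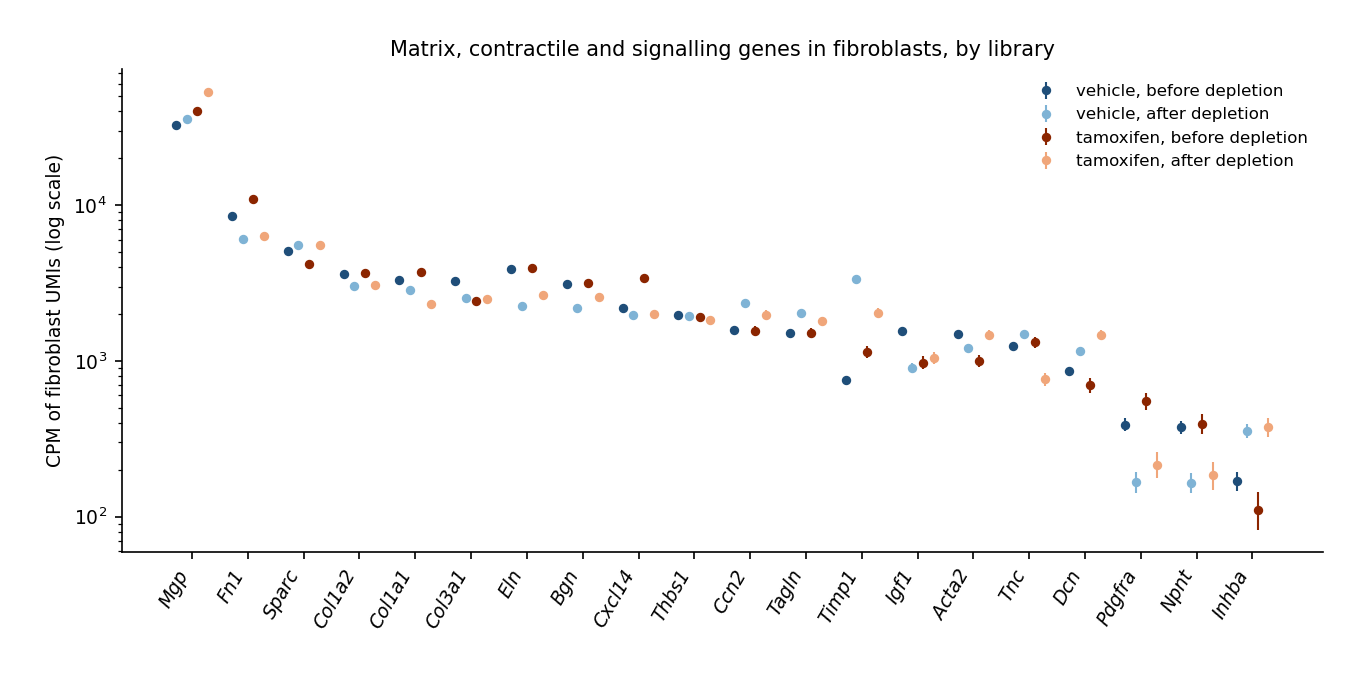
CPM of fibroblast UMIs (log axis) for 20 genes in the 4 libraries (colours), with exact Poisson 95% intervals. Mgp lay highest in each library, at 32777 to 53426 CPM, and the Pdgfra and Npnt points of both libraries after depletion lay below those before it.

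Signals made by the fibroblasts were led by Igf1, a growth factor, at 1557, 904, 975 and 1044 CPM. Fgf10 and Fgf7, ligands for the epithelial FGF receptor, were lower in level, at 79.1, 89.2, 64.8 and 37.5 CPM and at 55.0, 64.0, 34.6 and 24.4 CPM. Both FGF genes were lowest in the tamoxifen library after depletion. Tgfb1, a driver of matrix production, stood at 161, 241, 199 and 289 CPM. Cxcl14, a chemokine, was the highest of the cytokine list at 2190, 1971, 3410 and 1992 CPM. Cxcl1, which attracts neutrophils, was at 543, 775, 523 and 368 CPM and Ccl2, which attracts monocytes, at 258, 600, 253 and 268. Cxcl1 and Ccl2 were each highest in the vehicle library after depletion. Il6 stood at 157, 45.6, 309 and 195 CPM and had UMIs in 20, 17, 14 and 16 cells. Among receptors, Tgfbr2 was at 379, 285, 428 and 278 CPM, Fgfr1 at 305, 317, 449 and 345, and Pdgfrb at 206, 178, 272 and 235. The complement regulator Serping1 stood at 927, 558, 994 and 740 CPM and C3 at 333, 296, 419 and 370. The fibroblasts thus held RNA for ligands and receptors of the same pathways, which the counts alone do not connect.

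Trp53, the gene of the p53frt allele, was at 82.6, 73.7, 77.8 and 82.6 CPM. The counts do not separate recombined from intact alleles.

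To ask which fibroblast states were present, each cell was thinned to 2000 UMIs, which left 197 cells and dropped 10 shallower ones, and a state was scored as present at 2 or more UMIs of its list. The activated myofibroblast list (16 genes) was present in 98.0%, 100%, 80.8% and 92.2% of cells, and in 94.9% over all libraries. The same share was 89.1% in mural cells and 5.12% in epithelial cells, so the list separates both mesenchymal gates from epithelium and not from each other. Its leading members were the contractile genes Tagln at 1511, 2024, 1515 and 1800 CPM and Acta2 at 1486, 1206, 1000 and 1476 CPM, and the matrix gene Tnc at 1242, 1495, 1318 and 760 CPM. Acta2 averaged 2451 CPM in mural cells. Of the genes more specific to activation, Cthrc1 stood at 163, 294, 203 and 291 CPM in 15, 28, 7 and 15 cells, and Postn at 189, 338, 214 and 238 CPM in 21, 33, 6 and 23 cells.

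The alveolar fibroblast list (12 genes) was present in 67.3% (52.5 to 80.1), 35.2% (24.2 to 47.5), 57.7% (36.9 to 76.6) and 41.2% (27.6 to 55.8) of thinned cells. Without thinning the shares were 96.2%, 65.3%, 92.3% and 63.0%. Epithelial cells scored 20.3%, where Npnt averaged 84.9 CPM, and mural cells 16.0%. Over all libraries 47.7% of fibroblasts held the list. Of the 197 thinned cells, 89 held both the alveolar and the activated list, 5 the alveolar list only, 98 the activated list only and 5 neither, so at this threshold the lists did not divide the cells into separate groups.

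Single genes showed more of a division. Cthrc1 had UMIs in 65 fibroblasts. Of these, 50.8% also had Grem1, a BMP antagonist, against 21.1% of the 142 cells without Cthrc1, and 76.9% had Inhba, the activin A subunit, against 37.3%. Npnt, an alveolar matrix ligand, was found in 47.7% of cells with Cthrc1 and 67.6% of those without, and Pdgfra in 53.8% against 80.3%. The cells with Cthrc1 had the higher median depth, 16520 against 11226 UMIs, and the part of depth in these shares was not tested. Ces1d, a carboxylesterase of alveolar fibroblasts, was seen in 61 cells, of which 93.4% had Npnt and 13.1% had Cthrc1, against 47.9% and 39.0% of the other cells, at medians of 13296 and 13098.5 UMIs. The share of a cell's UMIs given to the alveolar list had medians of 0.145%, 0.0332%, 0.161% and 0.0425%, and that given to the activated list 0.570%, 0.557%, 0.474% and 0.374%.

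**Figure D3:**
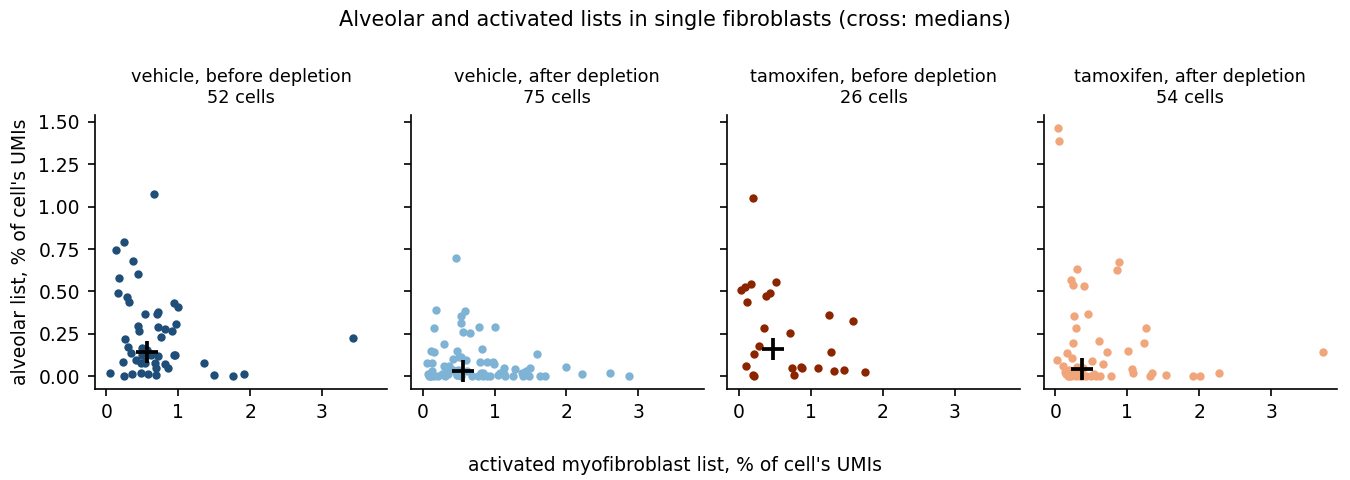
Each point is 1 fibroblast, by the percent of its UMIs from the activated myofibroblast list (horizontal) and from the alveolar list (vertical), 1 panel per library. Crosses mark the medians, which for the alveolar list were 0.145% and 0.161% before depletion and 0.0332% and 0.0425% after it.

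Adventitial genes were present in 93.9%, 83.1%, 84.6% and 70.6% of thinned fibroblasts, carried by Dcn, Mfap5 and Gsn. Over all libraries the share was 82.7% of fibroblasts, 85.4% of endothelial cells and 52.0% of mural cells, so it was not above the endothelial share. The peribronchial list was present in 18.4%, 12.7%, 11.5% and 17.6%, which over all libraries was 15.2% against 29.1% of mural cells. The antigen-presenting list was present in 4.06% of fibroblasts against 75.3% of epithelial cells, and the lipofibroblast list in 34.5% against 60.4%, so neither stood above the epithelial share. Cell cycle genes were present in 4 of 49, 5 of 71, 0 of 26 and 0 of 51 cells. The upper Clopper-Pearson limits for the last 2 libraries, with no such cell, were 13.2% and 6.98%.

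The next comparison set the portion after depletion against the portion before it, within each treatment. Each ratio compares fibroblasts of the same suspension. A gene was considered if it had at least 20 UMIs in each pair of libraries, and was called if both treatments showed a ratio of 2-fold or more in 1 direction, with 5 CPM added to each level. This is a rule of size and not a test. Of 6707 genes considered, 24 were called higher after depletion (0.358%) and 46 lower (0.686%). In vehicle alone 1.54% were at least 2-fold higher and 2.56% lower, and in tamoxifen alone 2.79% and 4.25%. The median over all genes considered was -0.02 in vehicle and -0.03 in tamoxifen on the log2 scale. Of the 6707 genes, 2192 were below 0 in both treatments and 1824 above 0 in both. Genes named for this comparison outside the fixed lists were chosen after their values were seen.

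Alveolar fibroblast genes made up a visible group among those lower after depletion. Of the 12 on the list 10 were considered, 8 were below 0 in both treatments and 5 were called lower, with a list median of -1.22 in vehicle and -1.04 in tamoxifen. Npnt stood at 375 and 395 CPM before depletion and at 165 and 184 CPM after it, so the portions did not overlap. Its log2 ratio was -1.16 (95% interval -1.45 to -0.93) in vehicle and -1.08 (-1.47 to -0.74) in tamoxifen, where intervals are on the plain ratio without the added 5 CPM. Itga8, an integrin subunit that binds Npnt protein, was at 284 and 298 CPM before and 73.7 and 146 CPM after. Limch1, an actomyosin regulator, was at 767 and 748 CPM before and 312 and 347 CPM after. Ces1d was at 162 and 449 CPM before and 17.5 and 133 CPM after, and Enpep, an aminopeptidase, at 38.7 and 49.7 CPM before and 16.5 and 13.1 CPM after. These 5 genes are those called, and each was lower in both libraries after depletion than in either before it. Inmt, of the same list, was not called: it stood at 203 and 315 CPM before and 187 and 402 CPM after. Single cells weighed on this level: after depletion 1 cell had 69 Inmt UMIs in vehicle and 1 had 105 in tamoxifen. The next highest cells had 46 and 38. The share of cells with an Inmt UMI was lower after depletion in both treatments, at a lower depth per cell. Tcf21, the transcription factor of this lineage, was at 137 and 104 CPM before and 33.0 and 75.1 CPM after, a ratio of -1.90 in vehicle and -0.44 in tamoxifen.

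Pdgfra, the receptor gene whose promoter stretch is printed above, stood at 390 and 549 CPM before depletion and at 167 and 216 CPM after it. It was detected in 46 of 52 and 25 of 26 fibroblasts before, and in 40 of 75 and 38 of 54 after. Its log2 ratio was -1.20 (-1.49 to -0.97) in vehicle and -1.33 (-1.68 to -1.02) in tamoxifen. In mural cells Pdgfra went from 134 to 28.5 CPM and from 52.1 to 11.9 CPM, so its direction was shared by that gate. The mural gate sets no limit on collagen UMIs and can hold cells rich in them. Mfap4 stood at 515 and 992 CPM before and 182 and 263 CPM after, although 62.3% of its UMIs in the tamoxifen library before depletion came from 1 cell. In mural cells Mfap4 went the other way, from 21.4 to 47.1 CPM and from 6.12 to 31.6 CPM. Ccn5, a matricellular growth regulator, was at 160 and 344 CPM before and 58.2 and 88.2 CPM after, and Gpc3, a cell-surface proteoglycan, at 341 and 354 CPM before and 147 and 167 CPM after. In the tamoxifen library before depletion 1 cell gave 40.3% of the Ccn5 UMIs and 1 cell 20.1% of the Gpc3 UMIs.

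Other genes lower after depletion were Hp, which encodes haptoglobin, at 763 and 908 CPM before and 275 and 223 CPM after, and the apoptosis inhibitor Birc3 at 226 and 171 CPM before and 69.8 and 56.3 CPM after. Macf1, a very long cytoskeletal linker gene, was at 1348 and 1417 CPM before and 585 and 620 CPM after. The 46 lower genes had a median genomic span of 109 kb, against 29.1 kb for the genes considered and 13.8 kb for the 24 higher genes. The part of gene span in these differences was not tested.

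Several matrix lists were also measured. Of the 4 transmembrane collagens 2 were considered, with medians of -1.65 and -1.29, and Col23a1 was called lower. In the elastic fibre list 12 of 17 genes were below 0 in both treatments, against 2192 of the 6707 genes considered. In that list 1 gene (Mfap4) was called lower, and the median was -0.39 in each treatment. Eln itself had ratios of -0.77 and -0.59. In the complement list 9 of 10 considered were below 0 in both, none was called lower and Clu was called higher, with medians of -0.67 and -0.39. In fibroblasts without Krt8, Krt18 or Cdh1 UMIs the ratio of Clu in vehicle was -0.038. Serping1 had ratios of -0.73 and -0.42. Fibrillar collagens had medians of -0.23 and -0.15 over 8 genes, with none called, and the activated myofibroblast list 0.42 and -0.20 over 13 genes, with Inhba called higher.

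Inhba stood at 169 and 110 CPM before depletion and at 357 and 375 CPM after it, in 23, 44, 12 and 24 cells. Its log2 ratio was 1.05 (0.82 to 1.33) in vehicle and 1.72 (1.32 to 2.24) in tamoxifen, where 1 cell gave 50.5% of its UMIs after depletion. Mustn1, a musculoskeletal gene on the peribronchial list, was at 25.8 and 21.6 CPM before and 81.5 and 77.0 CPM after. Col10a1, a short-chain collagen, was at 2.58 and 8.64 CPM before and 65.0 and 54.4 CPM after, but 1 cell of each library after depletion gave 88.1% and 86.2% of those UMIs.

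All 3 epithelial-list genes considered were called higher after depletion: Sftpc, at the levels given above, Krt18, and Sftpb at 13.8 and 45.4 CPM before and 99.9 and 156 CPM after. Krt18 was at 4.30 and 6.48 CPM before and 158 and 67.6 CPM after, and in the vehicle library after depletion 111 of its 163 UMIs came from the 6 cells with mesothelial UMIs. In endothelial cells Sftpc moved likewise, from 313 to 6961 CPM and from 245 to 8735 CPM. The summed epithelial level of 188, 1754, 287 and 1487 CPM and the lower depth per cell differed between the portions beside every group in this comparison. When only the 122 fibroblasts with Krt8, Krt18 and Cdh1 at 0 were used, 27 genes were called lower, 11 of them among the 46, and 4 higher, 3 of them among the 24. These cells hold fewer UMIs, so fewer genes could meet the minimum of 20 UMIs. The number considered in them is not given here. In those cells Pdgfra had ratios of -0.92 and -0.78, Npnt -0.67 and -0.48, Limch1 -1.02 and -0.27, Itga8 -1.70 and -0.28, Ces1d -2.74 and -1.65, and Inhba 0.90 and -0.07. The alveolar list then had medians of -1.70 and -0.27, and was present in 75.0%, 36.7%, 52.4% and 58.3% of thinned cells. By its median the list was thus further below 0 in vehicle than in all fibroblasts (-1.22), and less far in tamoxifen (-1.04 in all). The single genes Npnt, Limch1, Itga8 and Ces1d each showed a smaller fall than in all fibroblasts, in both treatments. Whether the 2 medians cover the same genes is not given here.

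Of the 46 genes lower in fibroblasts, mural cells had 23 considered, with 12 below 0 in both treatments and 4 called lower. Endothelial cells had 25 considered, with 15 below 0 in both and 3 called lower. Epithelial cells had 40 considered, with 24 below 0 in both and 3 called lower. Over all genes considered, 35 of 6310 were called lower in mural, 15 of 6082 in endothelial and 7 of 6588 in epithelial cells. Those below 0 in both treatments numbered 1989, 1829 and 2748. Whether the direction differed between fibroblasts and these gates was not tested.

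**Figure D4:**
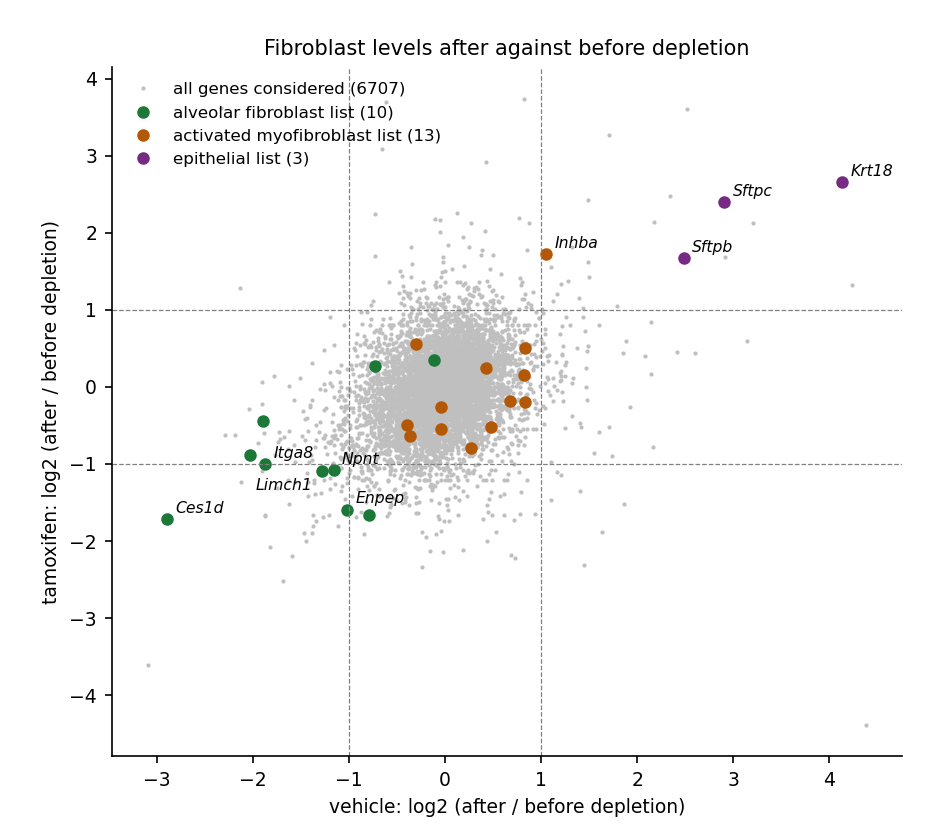
Log2 ratio after over before depletion (5 CPM added) in vehicle (horizontal) and tamoxifen (vertical) for the 6707 genes considered (grey), with the alveolar, activated and epithelial lists in colour and the 2-fold limits dashed. Of the 10 alveolar genes, 5 lie beyond both limits at the lower left, and all 3 epithelial genes lie beyond both at the upper right.

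The last comparison set the libraries labelled tamoxifen against those labelled vehicle, in the pair before and in the pair after depletion. The pairs are portions of the same suspensions and do not replicate each other, and they share libraries with the comparison above. Of 7698 genes considered, 8 were called higher in tamoxifen in both pairs (0.104%) and 28 lower (0.364%). Within the pair before depletion alone 117 were at least 2-fold higher (1.52%) and 262 lower (3.4%), and within the pair after it 78 (1.01%) and 191 (2.48%). The median over all genes was -0.06 and -0.04. Of the 7698 genes, 1690 were above 0 in both pairs and 2461 below 0 in both.

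Of the 8 higher genes, 6 met the rule for naming and H2-Q7 and Apoc1 did not. With each cell weighted equally, 2 of the 8 were still called. Fmod, the proteoglycan fibromodulin that shapes collagen fibrils, stood at 126 and 90.2 CPM in vehicle and at 344 and 199 CPM in tamoxifen, so the treatments did not overlap. It was detected in 21 of 52, 25 of 75, 18 of 26 and 20 of 54 cells, and its log2 ratio was 1.42 (1.12 to 1.79) before and 1.10 (0.73 to 1.56) after depletion. Lgals3bp, a secreted glycoprotein, was at 49.0 and 31.0 CPM in vehicle and 104 and 67.6 CPM in tamoxifen, in 26, 24, 18 and 20 cells. These 2 genes were spread over many cells in each library.

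Others rested on few cells. Saa3, an acute-phase protein, stood at 59.3 and 232 CPM in vehicle and 406 and 618 CPM in tamoxifen, but was seen in 5, 10, 7 and 7 cells, and 1 cell gave 40.6%, 72.0%, 52.7% and 76.0% of its UMIs. In the tamoxifen library after depletion that cell was the 1 fibroblast with UMIs of the mesothelial genes Msln, Upk3b or Lrrn4. Aldh1a3, a retinaldehyde dehydrogenase, was at 21.5 and 49.5 CPM in vehicle and 64.8 and 113 CPM in tamoxifen, in 5, 10, 3 and 7 cells. Ces1d was at 162 and 17.5 CPM in vehicle and 449 and 133 CPM in tamoxifen. In the tamoxifen library before depletion 59.1% of its UMIs came from 1 cell, and the share of cells with Ces1d was 51.9% in vehicle and 34.6% in tamoxifen there, opposite to the CPM. With each cell weighted equally the Ces1d ratio before depletion was 0.18, against 1.45 from summed UMIs. Dpep1, a membrane dipeptidase, was at 22.4 and 11.6 CPM in vehicle and 60.5 and 33.8 CPM in tamoxifen.

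The named genes lower in tamoxifen were Kiz, Pde10a, Penk, Opcml, Ibsp and Mrnip. Pde10a, a phosphodiesterase, stood at 107 and 155 CPM in vehicle and 38.9 and 65.7 CPM in tamoxifen, in 23, 32, 10 and 11 cells. Its log2 ratio was -1.35 (-2.26 to -0.74) before and -1.18 (-1.81 to -0.70) after depletion. Kiz, a centrosomal gene, was at 138 and 108 CPM in vehicle and 21.6 and 35.7 CPM in tamoxifen, with 62.5% of its UMIs in the vehicle library before depletion from 1 cell. Penk, which encodes proenkephalin, was at 117 and 47.5 CPM in vehicle and 6.48 and 18.8 CPM in tamoxifen, and 1 cell gave 107 of its 136 UMIs in the first of these and 51.0% in the second. Its ratio after depletion changed sign, to 1.16, in fibroblasts without Krt8, Krt18 or Cdh1 UMIs. Ibsp, a bone matrix sialoprotein, was at 18.9 and 40.7 CPM in vehicle and 0 and 5.63 CPM in tamoxifen, and all 42 UMIs of the vehicle library after depletion came from 1 cell. Its ratio after depletion changed sign, to 1.13, without the fibroblasts holding Myh11. For Opcml 1 cell gave 69.8% of the UMIs of the vehicle library after depletion, and for Mrnip 50.7% of those before it. For 5 of the 6 genes, all but Pde10a, most of the UMIs of at least 1 vehicle library thus came from 1 cell.

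Cell cycle genes had few UMIs. Of 13 on the list 6 were considered, 4 were below 0 in both pairs and 2 were called lower, Mki67 and Birc5, with medians of -1.19 and -0.43. The first of these ranged from -2.08 to -0.18 over the alternatives tried, and 1 cell gave 83.3% of the Mki67 and 54.5% of the Birc5 UMIs of the vehicle library after depletion. Mki67, a marker of dividing cells, was at 41.3 and 17.5 CPM in vehicle and 2.16 and 5.63 CPM in tamoxifen, and was seen in 10, 4, 1 and 1 cells. Its log2 ratio after depletion, -1.08, had an interval of -4.04 to 0.14, which includes no difference. Adam12, a metalloprotease on the activated list, was at 25.8 and 60.1 CPM in vehicle and 8.64 and 26.3 CPM in tamoxifen. Cxcl2, a neutrophil chemokine, was at 106 and 135 CPM in vehicle and 47.5 and 48.8 CPM in tamoxifen, and averaged 4741 CPM in the immune gate. It was seen in 23, 8, 12 and 8 cells, and 1 cell gave 36.6%, 66.2%, 36.4% and 61.5% of its UMIs. Of the other members of the cytokine list, Il6 was higher in tamoxifen in both pairs, by 0.95 before and 1.99 after depletion, and so was not called. In that list 14 genes were considered, 4 above 0 in both pairs and 6 below 0 in both, with medians of 0.09 and -0.15.

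Matrix, alveolar and signalling lists were compared in the same way. The small leucine-rich proteoglycans (8 considered) had medians of 0.51 and 0.23, with Fmod called, and the second of these ranged from -0.20 to 0.41 over the alternatives. The fibrillar collagens (9 considered) had medians of 0.09 and 0.03 and the elastic fibre genes (17 considered) 0.12 and 0.22, with none called. Col1a2 stood at 3608 and 3022 CPM in vehicle and at 3641 and 3077 CPM in tamoxifen. The alveolar list (9 considered) had medians of 0.08 and 0.94, with Ces1d called, and the activated list (14 considered) 0.02 and -0.33, with Adam12 called. In the complement list 8 of 10 were above 0 in both pairs, with medians of 0.15 and 0.40 and none called. Growth factor ligands (25 considered) had medians of 0.01 and 0.02 and receptors (18 considered) 0.20 and -0.06, with none called in either list.

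**Figure D5:**
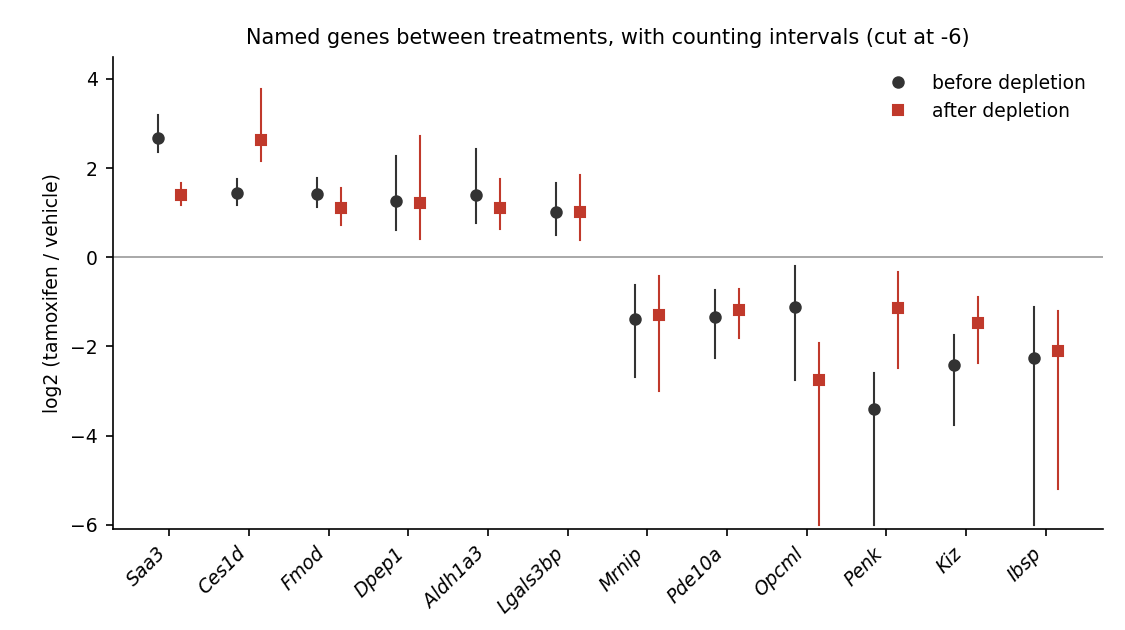
Log2 ratio of tamoxifen over vehicle (with 5 CPM added) for the 12 named genes, before (circles) and after (squares) depletion, with exact 95% counting intervals of the plain ratio, drawn no lower than -6. The 6 genes on the left lie above 0 and the 6 on the right below it in both pairs, with the widest intervals for Opcml, Penk and Ibsp. After depletion Penk without cells holding the 3 epithelial genes, and Ibsp without cells holding Myh11, lay above 0 (1.16 and 1.13, not drawn).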

How the data were processed

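Single cells of lung tumour suspensions were profiled with version 3 of the 10x Genomics 3′ chemistry, per the labels' protocols. The values deposited by the authors are raw UMI counts, 1 matrix per library. Cell Ranger 7.0.1 is named per the file headers, and Cell Ranger 7.2.0 and the build mm10 per the submitters' processing notes. The use of intronic reads and of strand is not given in the sources used here. Of 32289 features, 32158 matched GENCODE release M21 (GRCm38), which gave the gene spans.

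The members and gene lists were chosen with earlier results of these data known. Of 29367 barcodes, 28085 were kept. The UMI totals of the libraries were 104147479, 144994771, 92644997 and 141742060. Other classes were set by marker gates. Mural cells had at least 2 UMIs of Rgs5, Cox4i2 and Notch3, and Ptprc, Cdh5 and Epcam at 0. Endothelial cells had at least 2 of Cdh5 and Pecam1, with Ptprc and Epcam at 0. Epithelial cells had at least 3 of Epcam, Krt8, Krt18 and Cdh1, with Ptprc and Cdh5 at 0. Both of these had under 5 UMIs of the 3 collagens. Immune cells had at least 1 of Ptprc, with Cdh5 and Epcam at 0. The mural and immune gates set no collagen limit, and only the mural gate used the mural genes. UMIs were summed over fibroblasts per library and given as CPM of their total, with exact Poisson 95% intervals, exact conditional binomial intervals for ratios and Clopper-Pearson intervals for shares. Log2 ratios had 5 CPM added. With 1 library per group no test was made and no p-value computed. Doublets were scored with Scrublet (expected rate 0.06) in scanpy 1.11.5 and not removed. A further allele carried by all mice, and 1 gene list, are not reported here.

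Named genes are the markers, the up to 4 highest members of each of 40 fixed lists (420 genes) and members called, the genes most changed between treatments, and the 15 of highest ratio over other gates. Genes without a symbol of their own, ribosomal, mitochondrial and sex-linked genes, and genes higher in another gate were left out between treatments, which left 6 of 8 higher and 6 of 28 lower. Further genes of the fixed lists are given as values, and were chosen after their values were seen. Alternatives covered the added CPM, the UMI minimum, the fold, equal weight per cell, the gate and the thinning depth. Python 3.11.15, numpy 2.4.6, scipy 1.17.1 and pandas 2.3.3 were used.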

Additional observations from a re-analysis of the deposited data

How the results depend on the processing

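No paired analysis was possible because each group holds 1 library and the labels carry no replicate numbers. The cause of the changes below was not tested, beyond what each setting's own construction fixes.

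The share of fibroblasts moved past its interval when cells with Krt8, Krt18 or Cdh1 UMIs were left out, to 0.454% in vehicle and 0.346% in tamoxifen after depletion. Between treatments the 8 higher genes became 13 with 1 CPM added, 3 with 20 CPM, 5 with a minimum of 50 UMIs, 16 with no minimum, 72 at 1.5-fold, 0 at 4-fold, 15 with each cell weighted equally (2 shared with the 8) and 45 with both portions summed per treatment, which was chosen after seeing the data, as was the next setting. The 28 lower genes became 18 without fibroblasts holding Myh11 (15 shared). They became 2 with 20 CPM, 44 with a minimum of 10 UMIs, 7 with 50, 67 with none, 137 at 1.5-fold, 1 at 4-fold and 160 summed. After against before depletion, the 24 higher genes became 13 with 20 CPM, 48 with 10 UMIs, 8 with 50, 80 with no minimum, 102 at 1.5-fold, 6 at 4-fold and 4 in fibroblasts without the 3 epithelial genes. The 46 lower genes became 20 with 20 CPM, 28 with 50 UMIs, 80 with no minimum, 246 at 1.5-fold, 1 at 4-fold and 27 without the 3 epithelial genes.

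The share of fibroblasts holding the alveolar list went from 47.7% to 33.0% at 1000 UMIs, 62.5% at 4000, 75.8% without thinning, 65.0% at 1 UMI of the list, 37.1% at 3 and 57.4% without the 3 epithelial genes. The activated list went from 94.9% to 83.5%, 97.8%, 99.0%, 99.0% and 88.8% under the first 5 of these. Ratios between treatments that changed sign were Penk after depletion, at 1.16 without the epithelial genes, and Ibsp after depletion, at 1.13 without fibroblasts holding Myh11. After against before depletion, Inhba in tamoxifen went to -0.069 and Clu in vehicle to -0.038 without the epithelial genes. Of the ratios recomputed for named genes between treatments, 185 kept their direction and side of the 2-fold limit, 29 fell under the limit and 2 changed sign. After against before depletion these numbers were 287, 35 and 2. Depth limits what can be seen: with 26 fibroblasts and 462790 UMIs, the tamoxifen library before depletion has the widest intervals, and genes under about 20 UMIs in a pair were not compared.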
